A study of Eonycteris spelaea and Mus musculus with 51 samples.

Results

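Transcripts of the nuclear genes for the mitochondrial respiratory chain and ATP synthase were measured in lung, muscle and blood of mice. The groups were control mice, mice right after heat shock and mice in recovery. The set held every row of the mouse count table whose symbol named a subunit of complex I (Nduf followed by a, b, c, s or v and a number), complex II (Sdha to Sdhd), complex III (Uqcr), complex IV (Cox4 to Cox8 followed by a letter) or complex V (Atp5). Names ending in -ps, of which there were 2, were left out. The rule used names and no measured value, and it found 89 of 40840 rows: 42 of complex I, 4 of complex II, 8 of complex III, 18 of complex IV and 17 of complex V. Complexes are given by gene name alone, and the complex that each product joins was not checked. Ndufa4 and Ndufa4l2 are thus counted under complex I for their names only. GENCODE M21 holds a gene model for 85 of the 89 and marks Ndufs6b, Ndufb4c and Ndufa11b as processed pseudogenes, that is, retrotransposed copies. All 13 subunits encoded by mitochondrial DNA were not analysed here.

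The study set the heat response of the cave nectar bat Eonycteris spelaea beside that of the mouse, and 24 of its 51 libraries, those of Mus musculus, were used. Control tissue was taken at baseline with no treatment. The heat group was sampled directly at the end of 1 h of heat shock in the living animal, and the recovery group had the same 1 h of heat and then 4 h of recovery. Each group had 3 libraries in lung and muscle and 2 in blood. Strain, age, sex, temperature and the muscle sampled were not given in the sources used here. No group was handled or timed like the heated mice without heat, so heat, handling and time of day cannot be told apart. The replicates are numbered samples, and p-values measure the spread between these samples only.

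Complexes I and II pass electrons from NADH and succinate to ubiquinone, complex III passes them on to cytochrome c, and complex IV hands them to oxygen. Proton pumping by complexes I, III and IV drives ATP synthase, complex V. Most of their subunits are encoded in the nucleus. Muscle fibres are rich in mitochondria, while circulating erythrocytes have lost theirs. Complex IV has small regulatory subunits in paired forms: Cox6a2, Cox7a1 and Cox8b are the forms of heart and skeletal muscle, and Cox6a1, Cox7a2 and Cox8a are the forms found in most tissues.

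The coding sequences of these 3 pairs are shown because the results below rest on telling the forms apart. Each is the coding part of the transcript with the longest coding part in GENCODE M21 (for Cox6a1 the first 300 of its 339 bases), written 5′ to 3′ on the sense strand. Capitals mark bases that differ from the partner gene in a pairwise alignment or lie opposite a gap.
Cox6a1: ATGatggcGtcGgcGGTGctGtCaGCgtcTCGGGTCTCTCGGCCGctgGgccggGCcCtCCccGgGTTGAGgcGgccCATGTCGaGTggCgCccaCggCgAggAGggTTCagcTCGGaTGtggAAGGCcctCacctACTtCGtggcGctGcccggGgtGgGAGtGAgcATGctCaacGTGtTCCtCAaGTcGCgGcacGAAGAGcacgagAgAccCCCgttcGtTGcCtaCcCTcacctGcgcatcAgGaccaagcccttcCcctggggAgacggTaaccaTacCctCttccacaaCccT
Cox6a2: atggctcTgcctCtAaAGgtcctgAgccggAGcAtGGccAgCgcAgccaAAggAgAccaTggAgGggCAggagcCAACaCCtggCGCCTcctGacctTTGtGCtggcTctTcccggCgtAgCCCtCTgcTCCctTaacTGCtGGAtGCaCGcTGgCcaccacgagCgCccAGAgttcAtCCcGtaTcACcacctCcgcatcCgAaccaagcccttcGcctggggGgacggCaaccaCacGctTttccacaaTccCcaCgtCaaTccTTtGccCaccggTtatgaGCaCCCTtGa
Cox7a2: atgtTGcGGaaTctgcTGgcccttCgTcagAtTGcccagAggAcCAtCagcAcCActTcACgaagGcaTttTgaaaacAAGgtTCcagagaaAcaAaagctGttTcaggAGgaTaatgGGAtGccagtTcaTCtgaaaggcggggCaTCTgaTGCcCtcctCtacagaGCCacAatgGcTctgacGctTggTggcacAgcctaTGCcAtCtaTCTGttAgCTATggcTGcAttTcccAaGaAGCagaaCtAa
Cox7a1: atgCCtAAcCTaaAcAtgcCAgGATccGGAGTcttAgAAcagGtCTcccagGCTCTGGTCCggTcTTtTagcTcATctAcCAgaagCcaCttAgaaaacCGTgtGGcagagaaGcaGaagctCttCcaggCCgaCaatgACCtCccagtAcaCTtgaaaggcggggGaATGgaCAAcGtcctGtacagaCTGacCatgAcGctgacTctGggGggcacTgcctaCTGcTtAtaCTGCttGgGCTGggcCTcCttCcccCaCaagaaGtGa
Cox8a: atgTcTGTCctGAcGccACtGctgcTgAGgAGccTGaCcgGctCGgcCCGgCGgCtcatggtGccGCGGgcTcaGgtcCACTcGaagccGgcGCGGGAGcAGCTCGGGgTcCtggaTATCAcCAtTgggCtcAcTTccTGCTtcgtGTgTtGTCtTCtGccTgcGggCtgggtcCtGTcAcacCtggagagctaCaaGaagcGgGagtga
Cox8b: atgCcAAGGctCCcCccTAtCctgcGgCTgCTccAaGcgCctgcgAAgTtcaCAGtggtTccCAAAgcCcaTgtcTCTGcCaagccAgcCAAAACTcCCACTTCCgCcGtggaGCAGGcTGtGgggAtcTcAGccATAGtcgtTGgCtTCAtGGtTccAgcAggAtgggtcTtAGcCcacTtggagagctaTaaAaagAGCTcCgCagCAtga
The members of each pair lie on different chromosomes, given here in GRCm38, the build of that annotation. Cox6a1 is on the minus strand of chr5:115345642-115348981 and Cox6a2 on the minus strand of chr7:128205435-128206387. Cox7a2 is on the minus strand of chr9:79755361-79759878 and Cox7a1 on the plus strand of chr7:30184144-30186078. Cox8a is on the minus strand of chr19:7215153-7217616 and Cox8b on the minus strand of chr7:140898945-140900446. Coding identity was 56.0% between Cox6a1 and Cox6a2, 59.7% between Cox7a2 and Cox7a1 and 52.5% between Cox8a and Cox8b. The longest stretch shared by the coding sequences of a pair was 12, 12 and 10 bases. For comparison, Atp5g1 and Atp5g2, which encode the same c-ring subunit of ATP synthase, had 68.7% identity and a shared stretch of 21 bases. The read counts had been aligned to GRCm39, and no coordinate of that build is given.

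Library totals, in units of 1e6 counted reads, ran from 17.1 to 27.4 in lung, 26.3 to 37.2 in muscle and 32.5 to 54.5 in blood. Markers of the labelled tissue led in each: 5 lung epithelial genes summed to 14612 to 17016 CPM (reads per 1e6 counted reads, scaled as described below) in lung, 6 fast muscle genes to 34853 to 69521 in muscle and 6 erythroid genes to 368639 to 913722 in blood. The 9 muscle libraries were uneven. Muscle control 1, control 2 and recovery 1 had 642 to 924 CPM of 6 adipocyte markers against 41.5 to 258 in the other 6 libraries, and 34853 to 39407 CPM of fast muscle markers against 57101 to 69521. Lung control 1 and lung heat 2 held 299.7 and 142 CPM of fast muscle markers against 2.6 to 7.1 in the other 7 lung libraries. In blood, the erythroid sum was 398737 and 570758 CPM in controls, 368639 and 902778 in heat and 768113 and 913722 in recovery. In bulk tissue, fewer cells of a type and less RNA per cell cannot be told apart.

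The first comparison asked how the chain differs between tissues at baseline, over the 8 control libraries. Most subunit genes were higher in muscle than in lung, with similar medians in each complex. Of the 85 members with enough reads to test, 80 were higher and 3 lower in muscle than in lung in edgeR's quasi-likelihood test (called at a Benjamini-Hochberg adjusted p under 0.05, as throughout). Of all 21186 genes tested, 29.8% were called higher and 30.4% lower. The median log2 difference of the members was 3.03, with quartiles of 2.66 and 3.29, and that of all genes was -0.07. Scaled by library size alone, it was 1.98, beside -1.09 for all genes. By complex the medians were 3.01 for I, 2.98 for II, 3.23 for III, 2.86 for IV and 3.08 for V. All 4 genes of complex II, 8 of III and 17 of V were called higher, as were 39 of 40 of complex I and 12 of 16 of complex IV.

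The genes with the most reads in complexes II to V show the scale, on CPM scaled within the control libraries by trimmed means (TMM). Atp5b, the catalytic beta subunit of ATP synthase, stood at 162, 164 and 159 CPM in lung, 1682, 1676 and 2093 in muscle and 256 and 238 in blood. Sdha, the flavoprotein of complex II, stood at 76.6, 78.3 and 81.8 in lung, 599, 614 and 715 in muscle and 74.5 and 80.6 in blood. Muscle lay far above the other tissues for both, without overlap, while lung and blood overlapped for Sdha.
Uqcrc1, a core protein of complex III, averaged 41.2 ± 2.03 CPM in lung (SD, n = 3), 495 ± 59.8 in muscle (n = 3) and 38.0 ± 1.60 in blood (n = 2). Cox4i1, the usual form of subunit 4 of complex IV, averaged 40.6 ± 2.35, 286 ± 18.7 and 43.8 ± 1.87. Each of these 4 genes was highest in muscle in every library.

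Per kilobase of exon the order of genes within a tissue also differed. This order depends on the length used, here that of all annotated exons of a gene joined. Exon length was 4237 bases for Atp5b and 1131 for Cox7c, where coding length was 1590 and 192. An order by coding length was not computed. In muscle the highest were Atp5a1 and Atp5b, the alpha and beta subunits of ATP synthase, at 483 ± 67.9 and 429 ± 56.4 CPM per kilobase, followed by Cox8b at 219 ± 19.8. In lung Atp5a1 led with 49.2 ± 1.27, before Atp5b with 38.1 ± 0.66 and Cox8a with 38.0 ± 4.29, and the last pair did not differ beyond their spread. In blood Cox8a with 59.0 ± 2.93 and Atp5b with 58.3 ± 3.02 led and did not differ beyond their spread. Over the 84 members with a single gene model, the median stood at 57.3 CPM per kilobase in muscle, 6.97 in lung and 7.11 in blood.

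The tested genes that were lower or not called in muscle all have a second form. The 5 largest differences above lung were in Cox8b (log2 difference 6.77, SE 0.16, adjusted p = 2.3e-07), Cox7a1 (6.06), Cox6a2 (5.75), Atp5g1 (4.21) and Cox5a (4.18). Cox5a, a nuclear subunit of complex IV, has no second form in the set. Atp5g1 is 1 of 3 genes for the same c-ring protein. Lower in muscle than in lung were Cox4i2 (-3.41), the form of subunit 4 known from lung and oxygen-sensing cells, Cox6b2 (-2.92), known from testis, and Ndufa4l2 (-0.70), known as a gene induced by low oxygen. The 2 tested genes without a call were Cox6a1 (0.17, adjusted p = 0.63) and Cox8a (0.76, adjusted p = 0.063), both the broad forms. Cox8a stood at 45.0, 54.5 and 19.8 CPM in muscle and 20.7, 25.9 and 24.1 in lung, and the high muscle values were those of controls 1 and 2, the libraries with more adipocyte markers. Without muscle control 3 the Cox8a difference was 1.08 and was called (adjusted p = 9.2e-05).

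**Figure D1:**
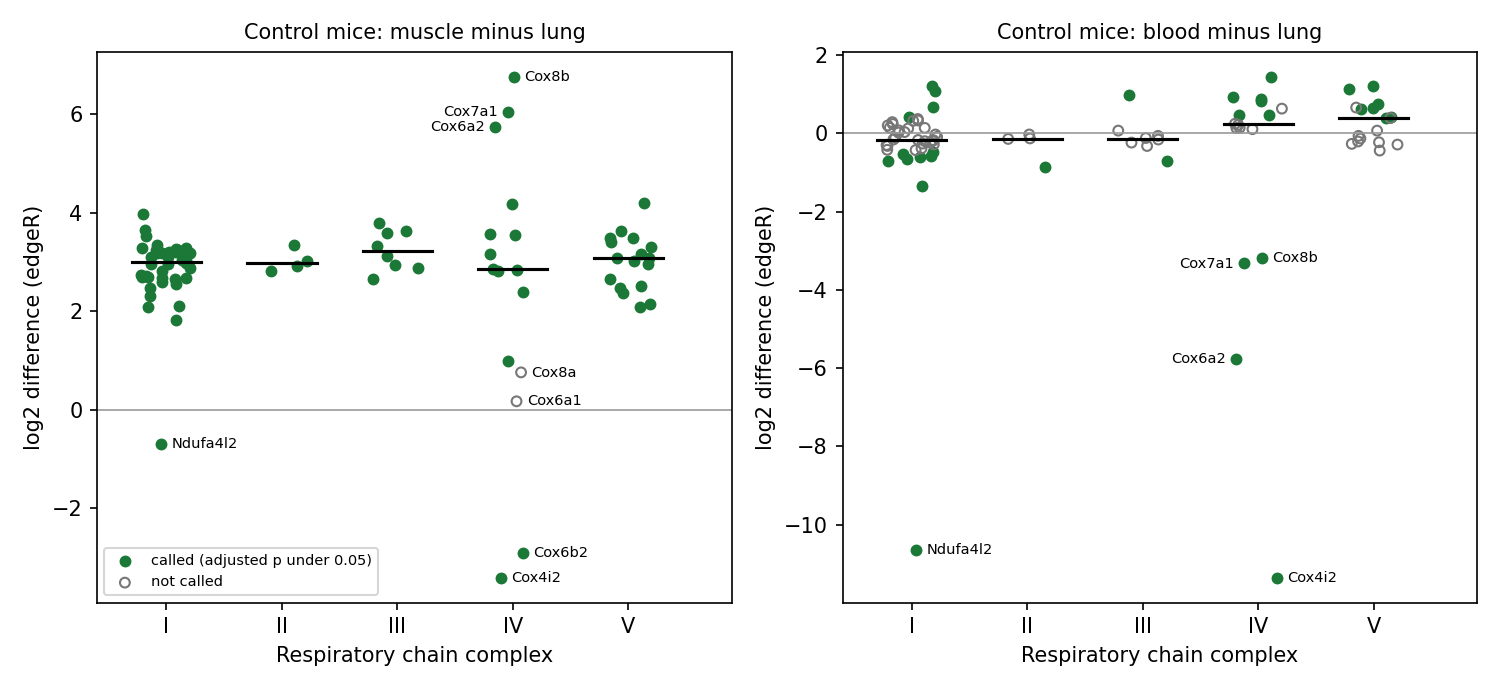
Log2 difference between control tissues for each respiratory chain gene (edgeR, y axis) by complex (x axis), muscle minus lung on the left and blood minus lung on the right; filled points were called, open points were not, and black lines are medians. In muscle the medians lie between 2.86 and 3.23, while in blood they lie between -0.16 and 0.39 with TMM (with library size alone all 85 points are below 0), and the fitted points of Cox4i2 and Ndufa4l2 in blood rest on 0 reads and are not sizes of effect.

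Between blood and lung the medians lay close together on the TMM scale. Of 85 members, 18 were called higher and 14 lower in blood, against 28.8% and 35.2% of all genes, so both shares were below the background. The median difference was -0.06, beside -0.11 for all genes. Higher in blood were 7 genes of complex V and 6 of complex IV. The 5 largest were Cox5a (1.45), Ndufa1 (1.22), Atp5mpl (1.21), Atp5l (1.14) and Ndufa3 (1.07). Ndufa1 and Ndufa3 are small accessory subunits of complex I, and Atp5mpl and Atp5l are small membrane subunits of ATP synthase. Cox5a stood at 40.6 and 24.7 CPM in blood against 12.1, 11.96 and 11.6 in lung, so the groups did not overlap but the blood libraries were far apart.
The direction of the blood differences depends on the scaling. With library size alone, all 85 members were lower in blood than in lung, 79 of them called, with a median of -1.67 beside -1.71 for all genes. Either scaling shifts members and other genes alike.

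The muscle forms, Cox4i2 and Ndufa4l2 had few or no reads in blood. Cox4i2 had 321 to 564 reads in each lung library, 9 to 31 in each muscle library and 0 in all 6 blood libraries. Taking 3 reads over both blood controls as the floor, Cox4i2 was at least 154.9-fold lower in blood than in lung and at least 14.476-fold lower than in muscle. Ndufa4l2 had 0 reads in both blood controls, 3 in all 6 blood libraries, and was at least 94.668-fold lower than in lung on the same floor. Cox6a2 had 1 read in the 2 blood controls, which puts the ratio of lung to blood at 63.7, with a counting interval of 11.4 to 2516. Cox8b had 3 reads there, a ratio of 9.46 with an interval of 3.24 to 45.9. Cox7a1, with 5 reads in the blood controls, differed by -3.32 (SE 0.64, edgeR adjusted p = 0.0018). These intervals are exact Poisson intervals at 95% and cover counting error only.

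Muscle against blood gave 81 members called higher and 1 lower, where 39.7% and 30.1% of all genes were called. The median was 3.05, beside 0.25 for all genes. The only member called lower was Cox6b2 (-3.17), with 3.66 and 2.47 CPM in blood and 0.41, 0.56 and 0 in muscle. Among the genes called higher, Cox6a2 and Cox8b had ratios to their 1 and 3 blood reads of 3419 (interval 614 to 135024) and 1041 (356 to 5047). Cox7a1 had a fitted log2 difference of 9.38, which rests on the few blood reads given above, all from blood control 1. Cox6a1 (0.02), Cox7a2l (0.09), which encodes a factor that joins complexes III and IV, and Cox8a (0.12) were not called. Without muscle control 3 Cox8a was called (0.45, edgeR adjusted p = 0.019).

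Expressed as a share of the pair, the muscle form dominated in muscle and was a minor part in lung. Shares were taken from reads per kilobase of exon. Cox6a2 made up 89.2 ± 5.59% of the Cox6a pair in muscle controls, 15.4 ± 3.36% in lung controls (SD, n = 3 each) and 0 and 0.52% in the 2 blood controls. Cox8b made up 77.6 ± 9.28% of the Cox8 pair in muscle, 5.06 ± 1.17% in lung and 0.25 and 0.45% in blood. Cox7a1 made up 65.3 ± 1.10% of the Cox7a pair in muscle, 12.8 ± 3.85% in lung and 0 and 2.20% in blood. These shares depend on the length used: with coding length they were 49.8% for Cox7a1 and 67.0% for Cox8b in muscle controls.

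**Figure D2:**
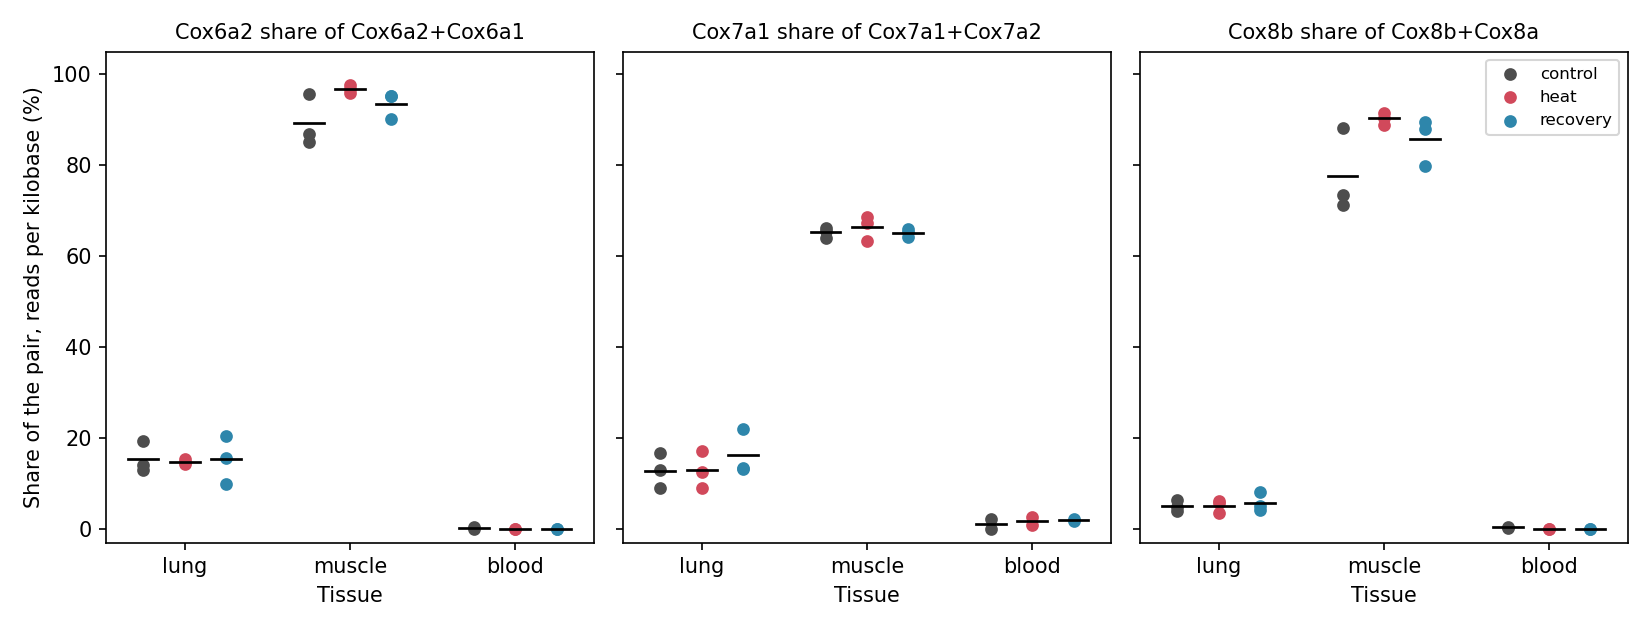
Share of the muscle form in each complex IV pair, in percent of the pair's reads per kilobase (y axis), for every library by tissue (x axis) and condition (colour); black lines are group means. Muscle, lung and blood separate in all 3 pairs, and within muscle the control values of Cox6a2 and Cox8b spread down to 85.2% and 71.2%.

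The pairs differed in how the shift was made. In muscle Cox7a2 itself was higher than in lung, at 89.7, 81.6 and 76.8 CPM against 14.0, 16.5 and 16.9, and Cox7a1 stood beside it at 96.8, 82.3 and 85.1. Cox6a1 did not differ between muscle (10.2, 13.6 and 5.68) and lung (10.5, 7.26 and 8.56) beyond its spread, while Cox6a2 stood at 64.7, 76.0 and 119 against 2.43, 1.05 and 1.36. Cox8b stood at 72.2, 78.2 and 86.5 CPM against 0.81, 0.62 and 0.72.
Other families with several genes also differed between tissues. Cox4i1 was higher in muscle than in lung by 2.82, where Cox4i2 was lower, as given above. Cox6b1 (15.9 CPM or less in each lung library, 97.2 or more in each muscle library) and Ndufa4 (11.5 or less, 95.03 or more) were higher in muscle, while their partners Cox6b2 and Ndufa4l2 were lower. Per kilobase, the c-ring genes Atp5g1, Atp5g2 and Atp5g3 stood at 36.2 ± 4.96, 53.6 ± 8.10 and 106 ± 12.7 in muscle and 1.95 ± 0.17, 10.3 ± 0.46 and 9.96 ± 0.67 in lung. By this exon length Atp5g3 led in muscle, and in lung Atp5g2 and Atp5g3 did not differ beyond their spread. The order of the 3 genes depends on the length used. Exon length was 4912, 1675 and 2181 bases for Atp5g1, Atp5g2 and Atp5g3, and coding length 411, 441 and 426.

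The muscle forms were few but present in lung. Reads per lung library ran from 32 to 86 for Cox6a2, 28 to 103 for Cox7a1 and 19 to 46 for Cox8b. All 9 lung libraries also held cardiac muscle markers, 8 genes with Myh6 among them, at 329 to 1082 CPM. The same 8 genes summed to 112 to 1586 CPM in the muscle libraries (scaled within muscle), so this sum does not mark heart alone. Cox6a2 was highest in lung control 1 (4.14 CPM, scaled within lung) and lung recovery 2 (4.02), and lung control 1 also held the most fast muscle signal, 299.7 CPM, while lung heat 2, with 142, had 2.14. Across these 9 libraries the Cox8b level and the cardiac sum had Pearson's r = 0.91 (exact permutation p = 0.0011, adjusted 0.0034 over 3 relations) and Spearman's rho = 0.80 (exact p = 0.014, adjusted 0.041). Without lung heat 3 and lung recovery 2, the libraries farthest from the median cardiac sum, r was 0.60. For Cox7a1 r was 0.86 (exact permutation p = 0.0062, adjusted 0.0093) and rho 0.62 (exact p = 0.086, adjusted 0.129), and r fell to 0.22 without them, so that relation rests on those 2 libraries. For Cox6a2 r was 0.53 (exact permutation p = 0.13, adjusted 0.13), rho was 0.47 (exact p = 0.21, adjusted 0.21), and r was 0.07 without the same libraries. These relations were computed after the values were seen. Groups of 3 are too small for values within a condition, and the part of heart or skeletal muscle tissue in the lung values was not tested.

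The second comparison asked what heat shock did in muscle. No member was called by edgeR between heat and control in muscle, where 0.428% of 17746 genes were called. At an unadjusted p under 0.05 there were 60 members, 58 higher and 2 lower, where 30% of all genes passed. DESeq2 called 33 members, 31 higher and 2 lower, where it called 14.7% of all genes. Of 85 members, 80 had a log2 change above 0, beside 46.9% of all genes, and in 72 the 3 heat libraries all lay above the 3 controls, beside 16.1% of all genes. In 2 members they all lay below, beside 21.5% of all genes. The median log2 change was 0.41, with quartiles of 0.34 and 0.44, and that of all genes was -0.05. The smallest adjusted p of a member in edgeR was 0.080.

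The median change was similar across the complexes. It was 0.42 for complex I, 0.36 for II, 0.41 for III, 0.34 for IV and 0.41 for V. Atp5b stood at 1280, 1249 and 1531 CPM in control, 1775, 1785 and 1859 in heat and 1194, 1624 and 1699 in recovery (scaled within the muscle libraries). Heat lay above control and recovery without overlap, and recovery overlapped control. Sdha stood at 455.5, 458.0 and 523.4 in control, 605.3, 581.6 and 598.9 in heat and 423.2, 550.7 and 566.0 in recovery. Both genes had heat above control in all libraries and recovery 1 below every control.
Ndufa8, an accessory subunit of complex I, had the smallest p among members that were higher: 65.7, 60.6 and 69.0 CPM in control and 101.3, 97.3 and 83.8 in heat, a log2 change of 0.53 (SE 0.13, edgeR adjusted p = 0.086). Uqcrc1 and Cox4i1 averaged 369 ± 38.0 and 213 ± 12.2 CPM in control and 490 ± 29.0 and 287 ± 11.5 in heat.

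How large the shift is depends on the scaling. As a share of all counted reads, the 89 genes made up 1.06 to 1.16% of the control libraries, 1.09 to 1.19% of the heat libraries and 1.10 to 1.13% of the recovery libraries, and these ranges overlap. With library size alone the median change at heat was 0.04, with 58 members above 0 and 27 below, and the median of all genes was -0.43. Since a scaling shifts all genes alike, the distance between members and the median gene, 0.46 log2 units with TMM, is nearly the same on either scale.

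Library make-up moved with the shift. Summed over the members, the TMM-scaled level was 9512.5, 9090 and 11057 CPM in controls 1, 2 and 3, 13183, 12997 and 13185 in heat and 9005, 12000.5 and 12273 in recovery. Adipocyte markers summed to 676, 924 and 230 CPM in the same controls, 41.5, 59.4 and 229 in heat and 642, 190 and 258 in recovery, with all 6 genes detected in every library. Fast muscle markers summed to 39407, 34853 and 57101, then 69521, 67360 and 59099, then 36646, 60954 and 65555. B cell markers summed to 82.3, 62.5 and 24.5, then 1.12, 6.87 and 9.32, then 142, 0.77 and 0.33. The 3 libraries with the lowest member sums were those with the most adipocyte and the least fast muscle signal. Sums of slow muscle and brown adipocyte markers are not given here, so this account of library make-up is partial. With muscle control 3 as the only control library, an alternative chosen after these values were seen, the median change at heat was 0.22 (77 of 85 above 0) and no member was called. The lone library is there assumed to vary like the other groups. The part of tissue make-up in the change was not tested.

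**Figure D3:**
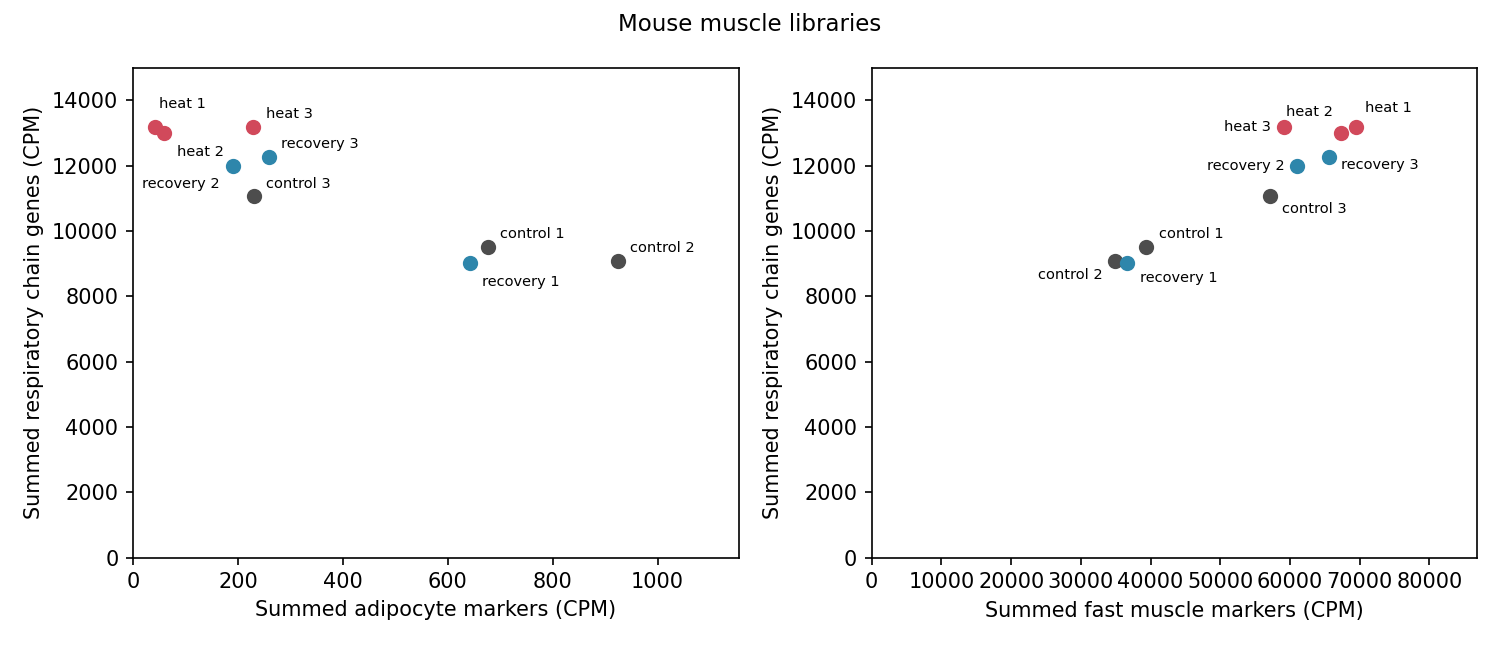
Summed level of the 89 respiratory chain genes (CPM, y axis) in each of the 9 muscle libraries against the summed adipocyte markers (left) and fast muscle markers (right), both in CPM. Control 1, control 2 and recovery 1 lie together at 9005 to 9512.5 CPM of chain genes with 642 to 924 CPM of adipocyte markers.

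The broad forms Cox6a1 and Cox8a had lower means at heat. Cox6a1 stood at 7.76, 10.2 and 4.15 CPM in control, 1.78, 2.79 and 3.11 in heat and 6.52, 3.83 and 4.32 in recovery. Heat lay below control without overlap, a log2 change of -1.53 (SE 0.37, edgeR adjusted p = 0.080, DESeq2 adjusted p = 0.0045). Cox8a stood at 34.2, 40.6 and 14.5 in control, 11.4, 13.1 and 17.7 in heat and 25.9, 14.5 and 16.4 in recovery, a change of -1.08 (SE 0.38, adjusted p = 0.13, DESeq2 0.045), and its groups overlapped. In both genes the 3 high values were those of control 1, control 2 and recovery 1. Without muscle control 3 edgeR called both lower at heat, Cox6a1 at -1.80 (adjusted p = 0.045) and Cox8a at -1.41 (adjusted p = 0.049). With muscle control 3 as the only control the changes were -0.70 and -0.05. Of the other members below 0, Cox4i2 changed by -0.63, Ndufa4l2 by -0.51 and Atp5k, a small membrane subunit of ATP synthase, by -0.21, none called; Atp5k is named here after its value was seen.

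The muscle forms and Cox7a2 had higher means at heat. None was called by edgeR, and DESeq2 called Cox7a1 (0.46, adjusted p = 0.018), Cox8b (0.39, adjusted p = 0.029) and Cox7a2 (0.38, adjusted p = 0.046) but not Cox6a2. Cox7a1 stood at 73.6, 61.4 and 62.3 CPM in control and 88.2, 82.3 and 92.8 in heat, Cox8b at 55.0, 58.3 and 63.3 and at 71.9, 71.8 and 82.1. Both heat groups lay above control. Cox6a2 stood at 49.2, 56.7 and 86.8 in control and 73.7, 63.8 and 89.8 in heat, with overlap. Cox7a2, the broad form of its pair, stood at 68.3, 60.8 and 56.2 in control and 75.5, 84.2 and 75.2 in heat, without overlap.

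**Figure D4:**
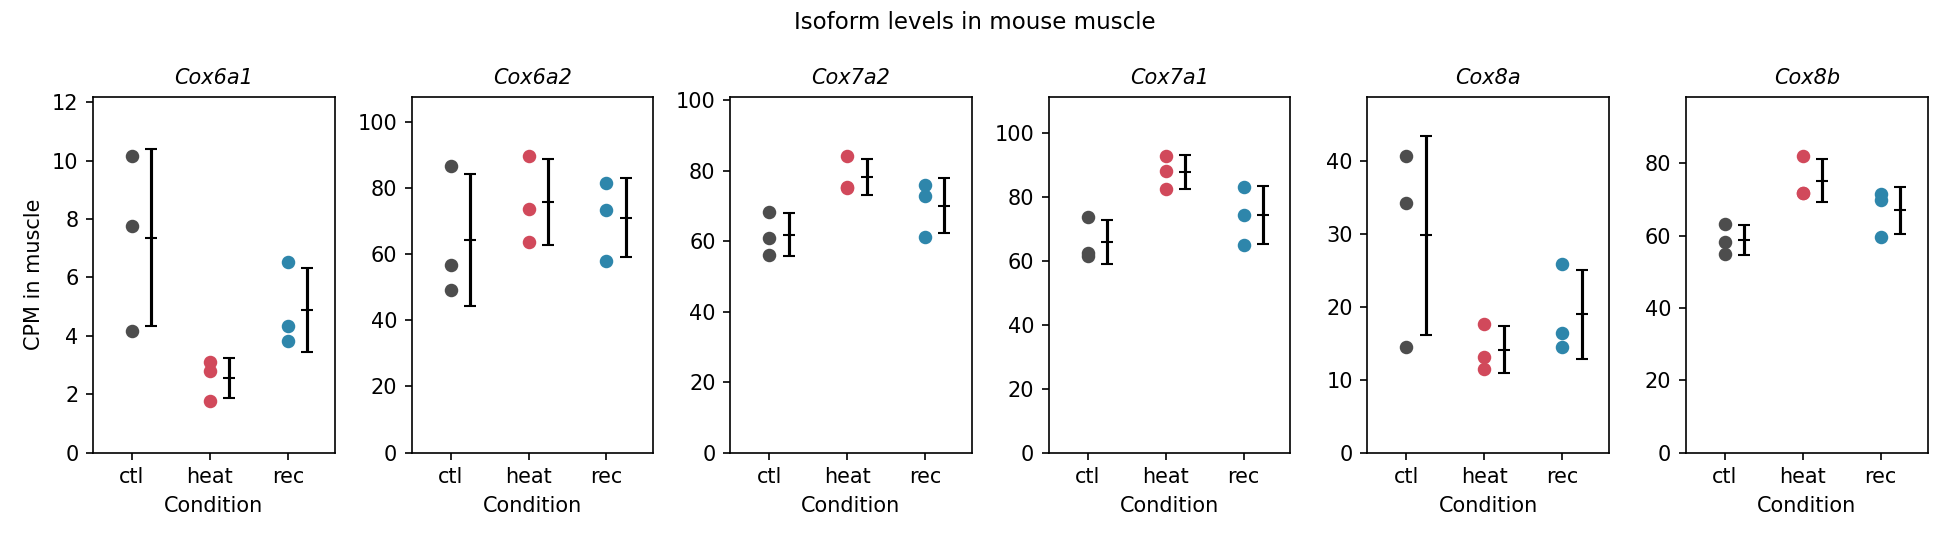
TMM-scaled CPM of the 3 isoform pairs in the 9 muscle libraries by condition (ctl, control; heat; rec, recovery); points are libraries, bars are mean and SD. Cox6a1 is lower in each heat library than in each control, Cox8a has a lower mean at heat, and the other 4 genes have higher means (TMM scale).

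As shares of the pairs, Cox6a2 went from 85.2 to 95.6% in control to 95.9 to 97.7% in heat, and Cox8b from 71.2 to 88.2% to 88.9 to 91.5%. The groups did not overlap, but 3 against 3 libraries cannot give an exact permutation p below 0.1, which both reached (two-sided, adjusted p = 0.9 over 27 comparisons). The control value nearest to heat was that of muscle control 3 in both pairs. The Cox7a1 share was 64.0 to 66.2% in control and 63.3 to 68.5% in heat, with overlap (exact permutation p = 0.5). In recovery the shares averaged 93.5 ± 2.87% for Cox6a2, 85.8 ± 5.20% for Cox8b and 65.1 ± 0.83% for Cox7a1, and each overlapped control.

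In muscle after 4 h of recovery the median member lay between heat and control. No member was called against control by edgeR (0.0676% of all genes were) or by DESeq2 (0.625%), and 5 had an unadjusted p under 0.05, beside 4.95% of all genes. The median change was 0.18, beside 0.00 for all genes, and 3 members were higher and 1 lower without overlap, beside 5.64% and 3.89% of all genes. With library size alone the median was 0.01 and that of all genes -0.15. Cox5b, a nuclear subunit of complex IV that binds zinc, stood at 25.4, 24.9 and 23.9 CPM in control and 32.1, 37.8 and 38.9 in recovery, a change of 0.55 (SE 0.15, adjusted p = 0.60). Atp5j2, a small subunit of ATP synthase, stood at 18.3, 16.7 and 20.4 and at 22.4, 27.4 and 26.9 (0.47, adjusted p = 0.66). Cox5b and Atp5j2 were among the 7 members with a log2 change above 0 from heat to recovery. With muscle control 3 as the only control, the median change was 0.03.

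Against heat, recovery in muscle had a median of -0.21, with 78 of 85 members below 0, where 53.9% of all genes lay above 0. No member was called by edgeR (0.468% of all genes) or DESeq2 (6.82%), 4 had an unadjusted p under 0.05 (19.7% of all genes), and 2 were higher and 38 lower without overlap (15.4% and 11% of all genes). With library size alone the median was -0.01 and that of all genes 0.27. Ndufa8 had the smallest p (-0.42, SE 0.13, adjusted p = 0.16), followed by Ndufs4, an accessory subunit of complex I needed for its assembly (-0.32, SE 0.11, adjusted p = 0.19). Recovery 1, the recovery library with the most adipocyte and least fast muscle signal, moved these medians: without it the median was -0.09 against heat and 0.32 against control. Ndufs4 stood at 91.0, 83.3 and 77.4 CPM in heat and 61.9, 75.3 and 64.3 in recovery.

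**Figure D5:**
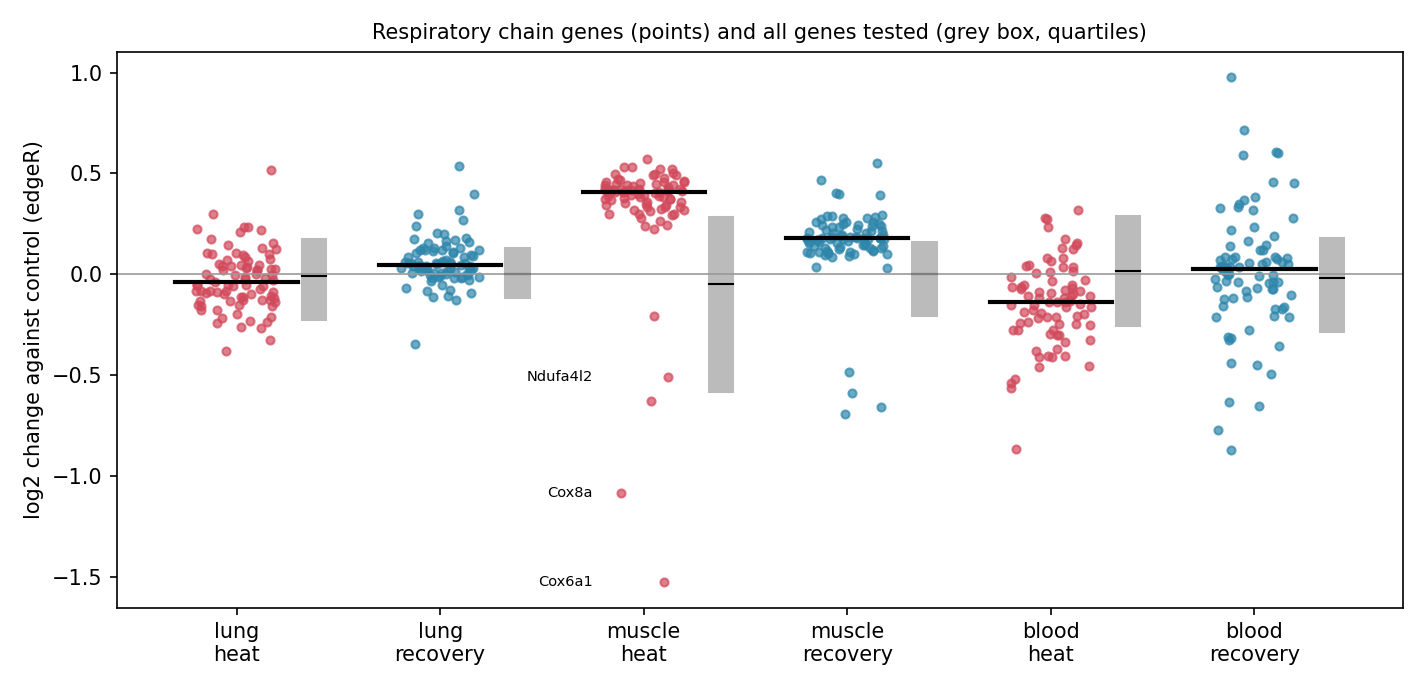
Log2 change against control (edgeR with TMM, y axis) of each respiratory chain gene after heat and in recovery in 3 tissues (x axis); black lines are the members' medians and grey boxes the quartiles of all genes tested. Muscle at heat has a median of 0.41 while its all-gene median is -0.05; with library size alone these are 0.04 and -0.43, and the medians in blood recovery turn from 0.03 to -0.60.

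The third comparison asked the same in lung, where replicates were closest. No member was called after heat, while edgeR called 5.85% of 19438 genes and DESeq2 11.1%. Only 1 member had an unadjusted p under 0.05, beside 23.5% of all genes, and 7 members were higher and 6 lower without overlap, beside 12.7% and 14.2%. The median change was -0.04, beside -0.01 for all genes. Ndufa5, an accessory subunit of complex I, stood at 6.38, 5.92 and 6.83 CPM in control, 4.46, 5.59 and 4.68 in heat and 5.90, 6.68 and 7.12 in recovery. Its heat values lay below the others without overlap (-0.38, SE 0.16, adjusted p = 0.18). Ndufa7, another accessory subunit, stood at 25.4, 32.2 and 28.6 in control and 31.7, 31.5 and 43.1 in heat, with overlap (0.30, adjusted p = 0.21). Atp5b averaged 274 ± 5.93, 300.3 ± 18.9 and 276 ± 34.3 CPM in the 3 conditions and Sdha 134 ± 3.66, 129 ± 2.69 and 140 ± 6.75.

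In lung recovery against control no member was called by edgeR (0.0309% of all genes) or DESeq2 (0.576%). An unadjusted p under 0.05 was found in 1 (7.14% of all genes), 4 were higher and 0 lower without overlap (8.61% and 8.24%), and the median was 0.05, beside 0.00 for all genes. Cox5b stood at 5.85, 6.87 and 6.11 in control and 7.92, 8.17 and 8.70 in recovery (0.40, SE 0.17, adjusted p = 0.67). Ndufv2, an iron-sulfur subunit of complex I, averaged 22.4 ± 1.24 and 25.9 ± 1.58 (0.21, adjusted p = 0.72).
Between recovery and heat the median was 0.09, beside 0.02 for all genes. No member was called by edgeR (11.3% of all genes) or DESeq2 (16%), 8 had an unadjusted p under 0.05 (28.3% of all genes), and 13 were higher and 1 lower without overlap (17.3% and 16.1%). Uqcr11, a small subunit of complex III, stood at 7.75, 7.83 and 8.14 in heat and 9.59, 9.76 and 11.5 in recovery (0.38, SE 0.13, adjusted p = 0.085). Ndufb8, a membrane arm subunit of complex I, averaged 21.0 ± 2.22 and 25.1 ± 0.82 (0.26, SE 0.10, adjusted p = 0.11), and was called without lung heat 2 (0.35, adjusted p = 0.041). Lung heat 2 was 1 of the 2 lung libraries with skeletal muscle markers. Leaving out both of these, lung control 1 and lung heat 2, gave medians of -0.05, 0.04 and 0.09 for the 3 comparisons and no call.

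The isoforms best known from lung and from low oxygen were not called in lung. Cox4i2 averaged 20.0 ± 0.76, 18.4 ± 4.12 and 18.5 ± 2.40 CPM in control, heat and recovery, and Ndufa4l2 12.2 ± 0.98, 10.9 ± 1.52 and 11.1 ± 1.03. Cox6b2 was not called in any lung comparison either, at 4.37 ± 1.07, 3.48 ± 0.83 and 3.44 ± 0.22. The share of the muscle form overlapped between conditions in each pair, with means of 14.8 to 15.4% for Cox6a2, 12.8 to 16.2% for Cox7a1 and 5.06 to 5.76% for Cox8b.

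The fourth comparison was made in blood, where 2 libraries per group leave the test weak. Of the 89 members 80 could be tested. After heat no member was called by edgeR or DESeq2. EdgeR called 0% of all genes and DESeq2 3.74%. An unadjusted p under 0.05 was found in 2 members, beside 14.8% of all genes, and 4 members were higher and 19 lower without overlap, beside 20.5% and 23.1%. The median was -0.14, beside 0.02 for all genes, and -0.28 beside -0.17 with library size alone. With TMM it ran from -0.34 to -0.01 when single libraries were left out. Atp5mpl stood at 5.30 and 4.96 CPM in control, 3.59 and 3.87 in heat and 4.91 and 5.33 in recovery (-0.46, SE 0.16, adjusted p = 0.26). Ndufs8, an iron-sulfur subunit of complex I, stood at 4.498 and 4.999 in control, 2.67 and 3.76 in heat and 3.82 and 3.81 in recovery (-0.56, SE 0.22, adjusted p = 0.31). Both were lower in each heat library than in each control. Without blood heat 2, which leaves heat 1 as the only heat library, edgeR called Atp5g2 lower (-0.86, adjusted p = 0.044). The spread then comes from the control and recovery libraries, and the lone heat library is assumed to vary like the other groups.

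In blood recovery against control no member was called by edgeR (0% of all genes) or DESeq2 (0.391%), and 6 had an unadjusted p under 0.05, all higher, beside 8.93% of all genes. In 22 members the recovery libraries lay above control and in 15 below, beside 25.2% and 26.8% of all genes. Cox8a stood at 17.7 and 16.2 CPM in control, 23.6 and 18.7 in heat and 26.1 and 25.4 in recovery (0.60, SE 0.14, adjusted p = 0.54). Atp5l stood at 20.0 and 19.2, 26.8 and 20.7, and 28.0 and 31.7 (0.61, SE 0.15, adjusted p = 0.54). Both genes and the erythroid marker sum were higher in heat 1 and the recovery libraries than in heat 2 and the controls, and the part of erythroid RNA in these values was not tested. The median turned with library size alone from 0.03 to -0.60, with -0.64 for all genes and 78 of 80 members below 0.
Between recovery and heat no member was called by edgeR (3.99% of all genes) or DESeq2 (10.5%). The median was 0.15 and turned to -0.32 with library size alone, beside 0.01 and -0.43 for all genes. White cell markers moved in the same libraries: 4 B cell genes summed to 249 and 283 CPM in heat and 424 and 418 in recovery, with Cd79b called higher in recovery by edgeR (0.82, adjusted p = 0.049). The 6 neutrophil genes summed to 267 and 248 in heat and 84.6 and 141 in recovery. For 5 T and NK cell genes the sums were 74.8 and 61.3 and 89.3 and 73.6, with overlap. These 5 genes went both ways. EdgeR called Cd3e higher (0.70, adjusted p = 0.043), and Cd8a (0.71) and Cd3d (0.23) lay above 0 without a call. Gzma (-1.16, DESeq2 adjusted p = 0.049) and Nkg7 (-0.46) lay below 0, neither called by edgeR. In controls the 3 sums were 416 and 342, 162 and 190, and 81.9 and 87.0. None of these markers was at 0 in any blood library, and their part in the members' values was not tested. Of the members, 7 had an unadjusted p under 0.05 (24.2% of all genes), and 31 were higher and 2 lower without overlap (29.5% and 26.4%). Ndufs4 stood at 7.85 and 7.23 in heat and 10.4 and 12.4 in recovery (0.59, SE 0.15, adjusted p = 0.081). Cox7b, a small subunit of complex IV, stood at 9.52 and 10.3 and at 12.9 and 16.9 (0.58, SE 0.16, adjusted p = 0.11). Without blood heat 2, again with 1 heat library and the spread of the other groups, Cox6a1 was called higher (0.91, edgeR adjusted p = 0.048). Cox6a2 and Cox8b had no reads in any blood library after heat or in recovery.

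Whether tissues differed in their response was tested as an interaction over all 24 libraries. For heat in muscle minus heat in lung, no member was called by edgeR, where 0.0443% of 22592 genes were. An unadjusted p under 0.05 was found in 39 of 87 members, beside 17.7% of all genes, 37 of them toward muscle. The median difference was 0.45, beside -0.10 for all genes, and 0.14 beside -0.41 with library size alone. DESeq2 called 4 members, beside 2.81% of all genes: Ndufa4 and Ndufa5 higher and Cox6a1 and Cox8a lower. The smallest edgeR p values belonged to Ndufa4 (0.76, SE 0.19, adjusted p = 0.12) and Cox6a1 (-1.39, SE 0.38, adjusted p = 0.13). Without muscle control 3 edgeR called Ndufa4 (0.79, adjusted p = 0.047), Cox6a1 (-1.68, 0.019) and Cox8a (-1.62, 0.013). Ndufa4 stood at 78.7, 70.8 and 80.2 CPM in muscle controls and 105.5, 109.9 and 107.6 at heat, and at 18.5, 18.7 and 19.4 in lung controls and 17.0, 17.2 and 13.5 at heat.
The other interactions gave no call by edgeR or DESeq2. For heat in blood minus lung 4 members had an unadjusted p under 0.05 (5.68% of all genes), with Ndufs8 (-0.68) and Ndufs5 (-0.67) first, both subunits of complex I. For recovery in muscle minus lung there was 1 (4.23% of all genes), Atp5j2 (0.52), and Cox8a (-0.72) came next; the median was 0.10 and turned to -0.06 with library size alone. For recovery in blood minus lung there were 7 (8.42% of all genes), with Cox5b (-0.88) and Ndufs5 (-0.82) first. These comparisons share their lung controls. In the same 3 comparisons edgeR called 0.0575%, 0.0398% and 0.0221% of all genes, and DESeq2 0.297%, 0.181% and 0.58%.

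Other genes of oxidative metabolism were taken from lists made for the same purpose. At baseline 29.8% of all genes were called higher in muscle than in lung and 30.4% lower. All 14 enzymes of the tricarboxylic acid cycle were higher in muscle (median 3.04), among them Mdh2, malate dehydrogenase (3.65), and Dld (2.78). Of 48 tested assembly factors, which build the complexes without staying in them, 43 were higher and none lower, with a smaller median of 1.67. The smallest p values among them belonged to Taco1 (3.22), Uqcc1 (2.35) and Ecsit (2.98). Of 15 regulators of mitochondrial biogenesis 11 were higher and 2 lower, with Perm1 (6.27), Esrra (2.59) and Ppargc1a (3.25) first. Cyc1, Cycs and Ndufab1, chain genes whose names fall outside the rule, were higher as well (3.46, 3.82 and 2.61). DESeq2 called the same numbers except for 10 regulators higher.
Between blood and lung 2 of 14 cycle enzymes were higher and 5 lower, 8 of 48 assembly factors higher and 2 lower, and 7 of 15 regulators higher and 3 lower, where 28.8% of all genes were higher and 35.2% lower. Idh2 was lower (-1.63), as were Ppara (-5.07) and Ppargc1a (-2.43), and Coa5, an assembly factor of complex IV, was higher (1.80).
In muscle at heat none of these genes was called by edgeR, and the medians were 0.41 for the cycle enzymes (13 of 14 above 0), 0.27 for the assembly factors (44 of 48) and 0.21 for the regulators (12 of 15). DESeq2 called 5 of the 14, 5 of the 48 and 2 of the 15, all higher, where it called 14.7% of all genes. Cycs, Cyc1 and Ndufab1 changed by 0.52, 0.39 and 0.37 in edgeR. DESeq2 called all 3 higher (adjusted p = 0.018, 0.030 and 0.035). Outside muscle, Ndufaf3, an assembly factor of complex I, was called higher in lung recovery than at heat (0.48, adjusted p = 0.042). Fh1, fumarate hydratase, was called higher in blood recovery than at heat (0.95, adjusted p = 0.034). Fh1 was lower in blood at heat than in control (-0.86, edgeR adjusted p = 0.11). DESeq2 called that fall (adjusted p = 0.0043), where it called 3.74% of all genes. Blood recovery differed from control by 0.09 in Fh1, without a call.

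Some members were at or near the limit of detection. Cox8c had 1 read in all 24 libraries and Cox7b2 had 9, and both are known from testis. Ndufs6b had 9 reads in lung, 78 in muscle and 0 in blood, and Ndufa11b 57, 27 and 39. For Cox8c and Cox7b2 a change was not detectable at this depth. Cox6b2, with 707 reads in lung and 450 in blood, had 45 in muscle. Of the 89 members, 85 passed the filter on low counts in lung, 85 in muscle, 80 in blood and 87 over all libraries.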

How the data were processed

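Per the labels' protocols, total RNA from mouse tissue was isolated in TRIzol and made into strand-specific libraries (NEBNext Ultra Directional). STAR 2.7, featureCounts and the build GRCm39 are named in the submitters' processing notes. Strand setting and handling of reads that match several genes were not given in the sources used here, so retrocopies and overlapping genes are uncertain. The authors deposited raw read counts per gene, and the table was tested as whole numbers. The bat table was not used.

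Counts were fitted with edgeR 4.0.16 (glmQLFit and glmQLFTest, robust, TMM; genes kept by filterByExpr with a minimum count of 10 and a minimum total of 15), each tissue alone, the 8 control libraries for tissues, and all 24 libraries for interactions. P-values were adjusted by Benjamini-Hochberg over all genes tested, with a threshold of 0.05. SE is the log2 change over the root of the quasi-likelihood F. Exon lengths came from GENCODE M21 (GRCm38). Shares of pairs were compared by two-sided exact permutation (scipy 1.17.1). DESeq2 1.42.0, other scalings, no filter, a replicate block and leaving out each library were alternatives.

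The fits were tested on simulated data with known changes. The biological coefficient of variation was 0.16 in lung, 0.34 in muscle and 0.26 in blood. Libraries of a group differed by at least 10.6 times counting noise, so none was merged.

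Named genes were the isoform families, the member with most reads in each complex, and in each comparison the 5 called members with the largest change either way or, with no call, the 2 with the smallest p, and up to 3 called genes of each other list. Some named genes are not reported here. The members and lists were chosen with earlier results of these data known.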

Additional observations from a re-analysis of the deposited data

How the results depend on the processing

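The counts of called members that stayed within 1.5 times under every alternative tried were those of lung heat and recovery against control, muscle recovery against control, blood recovery against control, muscle against lung, muscle against blood, and the 3 interactions other than heat in muscle minus lung. Elsewhere the number of members called moved. For muscle heat against control it was 0 as reported, beside 0.428% of all genes. It was 33 with DESeq2 (14.7% of all genes) and 34 with all 24 libraries in 1 fit. For heat in muscle minus lung DESeq2 called 4, beside 2.81% of all genes. For the other alternatives the share of all genes called is not given here. Their counts do not show whether a move was particular to the members. With all libraries in 1 fit, 1 member was called in muscle recovery against heat (Cox6a1) and 1 in blood recovery against heat (Ndufs4). With library size alone, 2 were called in lung recovery against heat. In blood against lung the same scaling called 79 in place of 32, and 10 named genes turned from higher to lower in blood: Cox7a2 (-1.14), Cox6b1 (-1.14), Ndufa4 (-1.19), Atp5g2 (-1.16), Atp5b (-1.0002), Cox5a (-0.19), Ndufa1 (-0.40), Atp5mpl (-0.40), Atp5l (-0.46) and Ndufa3 (-0.56). Leaving out single libraries gave 0 to 1 calls in lung recovery against heat, 0 to 2 in muscle heat, 0 to 1 in blood heat, 0 to 2 in blood recovery against heat and 0 to 4 in heat in muscle minus lung. With the replicate block, the counts were 83 for muscle against lung, 30 for blood against lung, 82 for muscle against blood and 0 within tissues. Same-numbered libraries, though, deviated together (correlation over 0.1) in only 1 of 7 pairs among control tissues, 1 of 9 in lung and 2 of 9 in muscle. In blood it was 1 of 4 pairs. With 2 libraries per blood group the deviations mirror each other, so the blood count cannot speak for or against pairing. No paired analysis was possible for blood heat or recovery against control because the groups share fewer than 2 numbers, and none was run for the interactions. The cause of these moves was not tested. Genes with few reads, such as Cox8c and Cox7b2, could not be tested at this depth.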
